A study of Mus musculus with 27 samples.

Results

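Among 55483 genes counted in RAW264.7 cells, 10 mRNAs were chosen for high recovery with an antibody to the RNA-binding protein HuR, relative to total RNA or to control IgG, in every treatment. They are Med18, Gpbp1l1, Kdelr2, Mcu, Nlk, Tshz3, Srpk1, Nfatc2ip, Tram1 and Frat1, and all 10 were found in the count table by symbol. RAW264.7 is an established mouse macrophage cell line. Cells were kept for 6 h in DMSO (the solvent control), in LPS at 1 µg/ml with DMSO, or in the same LPS with the tanshinone mimic TM7nox at 10 µM. Each treatment gave 4 libraries of total RNA and 4 of anti-HuR RIP (ribonucleoprotein immunoprecipitation), numbered 1 to 4. It also gave 1 control IgG library, always of replicate 3. No label says whether the numbers mark separate cultures, so p-values measure the spread between these samples, which may be technical.

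HuR, the product of Elavl1, is a nuclear and cytoplasmic protein that binds U-rich and AU-rich stretches, mostly in 3′ UTRs, and is known for stabilising mRNAs, including inflammatory mRNAs of macrophages. LPS, a lipopolysaccharide of bacterial cell walls, activates macrophages through a Toll-like receptor. Tanshinone mimics are small molecules made to hinder HuR in binding RNA. In RIP, an mRNA that travels with HuR is more abundant on the antibody beads than in total RNA, relative to a typical gene.

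Because HuR binds U-rich RNA, the most U-rich stretch of 30 bases was read from the canonical 3′ UTR of each of the 10 mRNAs (GENCODE M39, GRCm39). The 4 shown span the range: Srpk1 had the most U, Med18 had the densest U runs of the 10 3′ UTRs, Frat1 had the lowest U share over its whole 3′ UTR, and Nlk had the fewest U in its stretch. They are written 5′ to 3′ on the mRNA strand with T for U, and capitals mark runs of at least 5 T.
Srpk1: TTTTTgTTTTTTTTTTTTTTTTTTTTTTTT
Med18: TTTTTTTTTTTTTgTTTTTTTTTTgTTTTT
Frat1: tccTTTTTTTTTTTTTTTTTTTTTTTTTTT
Nlk: tttatgTTTTTattttattattaTTTTTTT
The Srpk1 stretch lies at chr17:28808380-28808409 (minus strand), 622 bases after the stop codon, and holds 29 U. The Med18 stretch lies at chr4:132186181-132186210 (minus strand), 661 bases after the stop codon, and holds 28 U. The Frat1 stretch, at chr19:41819682-41819711 (plus strand), also holds 28 U and starts 251 bases after the stop codon. The Nlk stretch, at chr11:78459409-78459438 (minus strand), holds 24 U, interrupted by A and G.

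Over whole 3′ UTRs, the 10 mRNAs shared U runs more than AU-rich pentamers. The comparison was with 11047 coding genes tested for RIP over RNA whose 3′ UTR had at least 50 bases, on the mRNA strand only, and sequence played no part in choosing the mRNAs. The U share was 25.6% to 38.9%, with a median of 33.6% against 29.2% for all genes. With the longest annotated 3′ UTR of each gene instead, the medians were 31.9% and 28.6%, and Tshz3 fell to 24.1%. In the canonical 3′ UTRs the U share was above the median of all genes in 9 of 10, the exception being Frat1 at 25.6%. Runs of TTTTT or longer, each run counted once, occurred 4.40 to 13.2 times per kb, with a median of 7.23 against 2.47. All 10 were above the median of all genes in this measure, and 5 were above its 90th percentile of 6.15. The pentamer ATTTA, the core of AU-rich elements, counted with overlaps, had a median of 1.23 per kb against 1.38, and 4 of 10 lay above the median of all genes. Tshz3 was the highest of the 10 in ATTTA, with 9 copies or 5.23 per kb.

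The run TTTTTTT was present in 10 of 10 of these 3′ UTRs and in 47.9% of all of them. Among 4165 genes whose 3′ UTR was as long as those of the 10 (831 to 2409 bases), 52.2% held it. The most U-rich window of 30 bases held 24 to 29 U in the 10 mRNAs, with a median of 27 against 19 for all genes. A window of at least 24 U was present in 13.0% of the genes of like length. The 235 genes with RIP over RNA at least as high as the lowest of the 10 had medians of 32.0% U, 4.89 runs of TTTTT per kb and 26 U in the best window. Their median of ATTTA was 1.58 per kb, above the 1.38 of all genes, where that of the 10 was 1.23. These are matches of letters in the annotated 3′ UTRs, not measured binding sites.

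**Figure D1:**
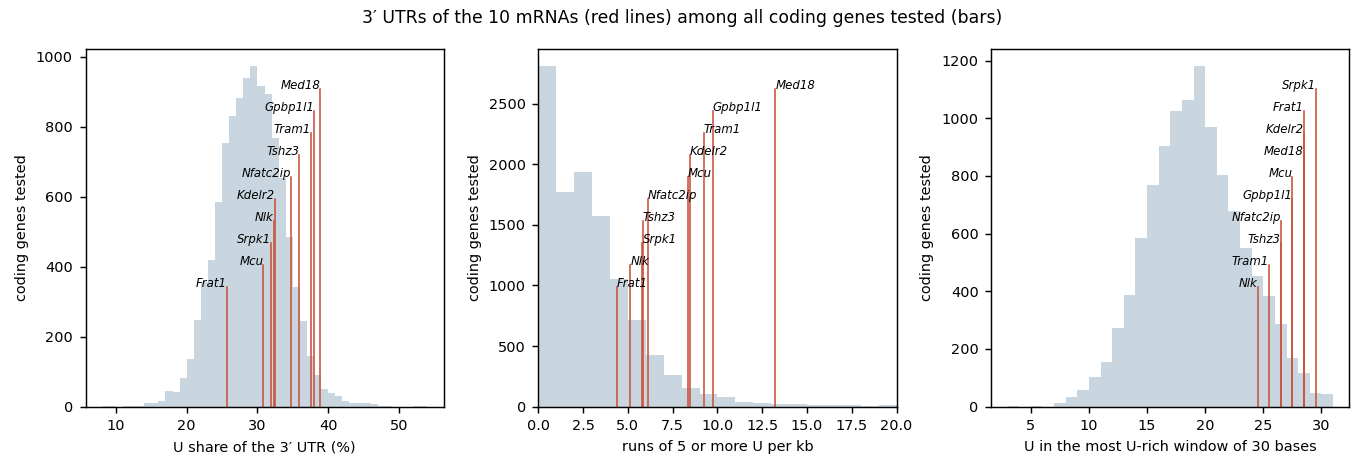
Histograms of 3 features of the canonical 3′ UTRs of 11047 coding genes (bars: number of genes): U share in %, runs of at least 5 U per kb, and U in the most U-rich window of 30 bases. Red lines mark the 10 mRNAs, whose height only separates the names; all 10 lie above the median of 2.47 runs per kb, while Frat1 lies below the median U share. The axis of the second panel ends at 20 runs per kb.

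The total RNA libraries held 2728534 to 28285856 counts, the RIP libraries 19816312 to 41449233 and the IgG libraries 8873091 to 24513902. RNA DMSO replicate 1 was the shallowest, and the next RNA library held 16258731. All 8 macrophage markers examined had counts in all 12 RNA libraries, at a summed 3340 to 6690 CPM (counts-per-million on a TMM scale over all 27 libraries). Markers of T cells, B cells, fibroblasts and epithelial cells summed to at most 0.385 CPM, with Epcam and Krt8 at 0, and those of endothelial cells to 0.232 to 2.76 CPM. In such bulk samples, fewer cells with an mRNA and less of it per cell cannot be told apart.

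The values that chose the 10 mRNAs are given as a description, without tests. Their median log2 RIP over RNA stood at 5.04 without LPS (all 14311 genes: 0.04), at 5.08 with LPS (all genes: -0.06) and at 5.31 with LPS and TM7nox (all genes: -0.09). RIP over IgG had a median of 5.49 (3.95 for Srpk1 to 6.86 for Frat1), against 0.00 for all genes. The Frat1 value rests on 3, 3 and 0 IgG counts and was 4.94 without IgG DMSO replicate 3. In the same fit, 37% of all genes were called higher in RIP than in RNA in DMSO, 32.9% in LPS and 35.2% in LPS+TM7nox. TMM scaling sets the typical gene near 0, so these values have no absolute scale. With total counts alone, the median of all genes moved by -0.76 in DMSO, -0.998 in LPS and -0.98 in LPS+TM7nox, and the median of the 10 stood at 4.27, 4.07 and 4.31.

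The name "strongest" held for some of the 10 more than for others. By mean RIP over RNA over the 3 treatments, Frat1 was 7th, Med18 21st, Gpbp1l1 89th, Tram1 99th and Mcu 157th of 14311 genes. Nfatc2ip was 161st, Kdelr2 177th, Nlk 409th, Tshz3 466th and Srpk1 585th. The place of Frat1 rests on few RNA counts, since its mean includes 5.88 from 3 counts in LPS and 7.88 from 1 count in LPS+TM7nox. Of the first 15 genes, 13 carried predicted or Riken symbols, and the other two were Frat1 and the sialyltransferase gene St3gal4. Among 10809 named coding genes with a 3′ UTR, Frat1 was 1st, Med18 5th and Srpk1 228th.

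Among the regulators of transcription, Med18, a head-module subunit of the Mediator complex that bridges transcription factors and RNA polymerase II, had the largest gap of the 9 with enough counts for tests in both assays. Its RIP libraries held 320.0, 309.8, 389 and 341 CPM in DMSO (replicates 1 to 4), 229.9, 246, 266 and 238 in LPS and 285, 344, 270.0 and 263 in LPS+TM7nox. Its RNA libraries held 2.12, 5.28, 6.43 and 5.39 CPM in DMSO, 3.34, 3.42, 3.64 and 4.09 in LPS and 7.14, 4.41, 3.89 and 3.65 in LPS+TM7nox. The IgG libraries, at 6.00, 4.16 and 3.96 CPM in the same order, lay within the 2.12 to 7.14 CPM that total RNA spanned over the treatments. The log2 RIP over RNA of Med18 was 6.15 (SE 0.247), 6.08 (SE 0.246) and 5.92 (SE 0.244) in the 3 treatments. Med18 lies at chr4:132186040-132191240 and overlaps no other annotated gene.

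Tram1 and Kdelr2, which serve the early secretory pathway, were the most abundant of the 10 in RIP and, per kb of annotated exon, in RNA. Tram1 encodes a membrane protein beside the translocon, where new proteins enter the endoplasmic reticulum (ER). It had 92.2 to 154 CPM in the RNA libraries and 4292 to 7012 CPM in RIP. Kdelr2, a receptor that returns escaped ER proteins from the Golgi, had 73.7 to 94.7 CPM in RNA and 2249 to 3555 CPM in RIP. Per kb of annotated exon in DMSO RNA, Tram1 was the highest of the 10 at 25.6 CPM and Frat1 the lowest at 0.0976 CPM. In IgG, Tram1 had 74.1, 88.4 and 90.2 CPM and Kdelr2 53.3, 55.1 and 55.5 CPM, both below their RNA libraries. Mcu, the pore subunit of the mitochondrial calcium uniporter, had 9.12 to 16.3 CPM in RNA, 373 to 623 CPM in RIP and 12.7 to 17.2 CPM in IgG. RIP and RNA libraries of these 3 mRNAs did not come near each other in any treatment.

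**Figure D2:**
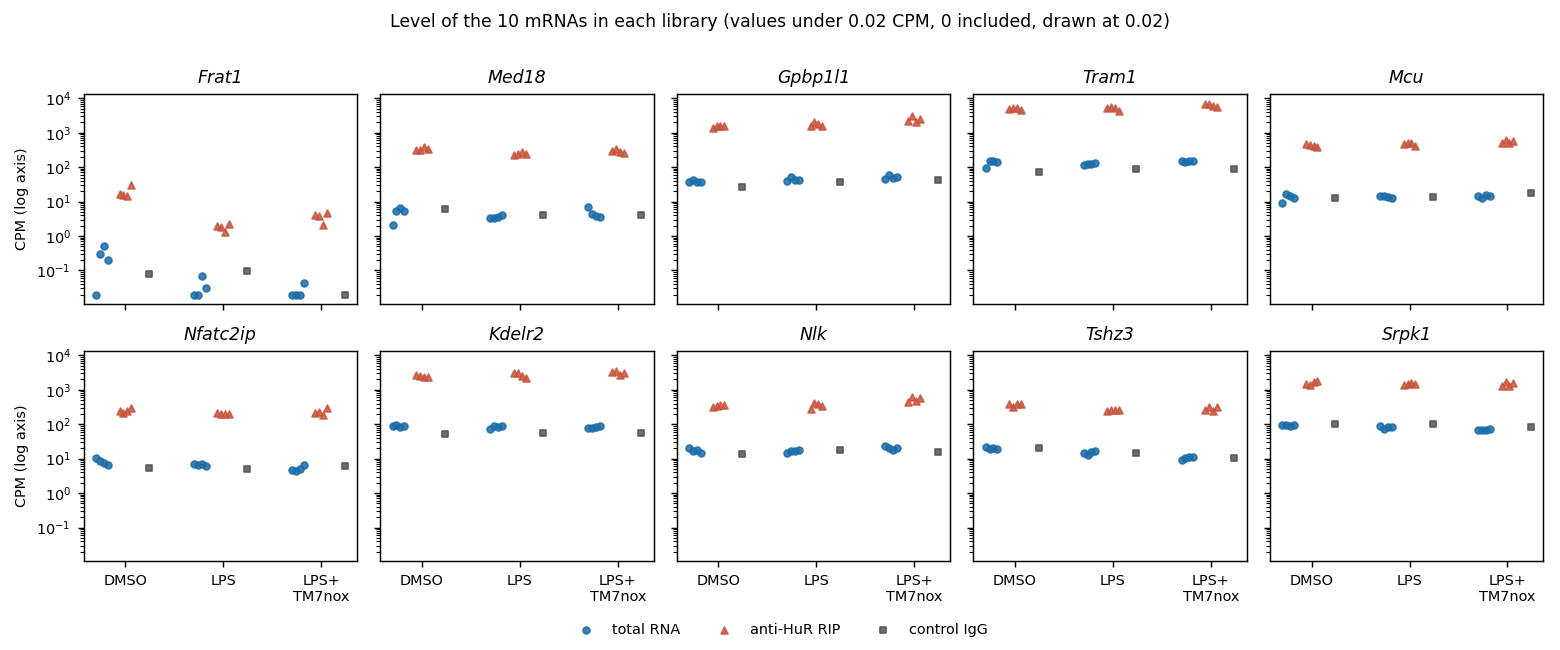
CPM (log axis) of each of the 10 mRNAs in every library, by treatment; circles are total RNA, triangles anti-HuR RIP and squares control IgG, with 4, 4 and 1 libraries per treatment. RIP lies above RNA and IgG for each mRNA, and Frat1 alone has libraries at 0, drawn at 0.02 CPM.

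Control IgG held the 10 mRNAs at levels near those of total RNA. In replicate 3, IgG minus RNA had a median log2 of -0.39 in DMSO, -0.04 in LPS and -0.03 in LPS+TM7nox, against -0.02, 0.00 and -0.03 for all genes. With 1 IgG library per treatment there is no spread for these values. RIP minus IgG in the same replicate had medians of 5.42, 5.21 and 4.91. Over the 3 treatments, RIP over IgG was 5.99 for Tram1, 5.93 for Med18, 5.71 for Gpbp1l1, 5.65 for Kdelr2, 5.33 for Nfatc2ip and 5.04 for Mcu. It was 4.59 for Nlk, 4.31 for Tshz3 and 3.95 for Srpk1, the same 3 that were lowest in RIP over RNA.

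**Figure D3:**
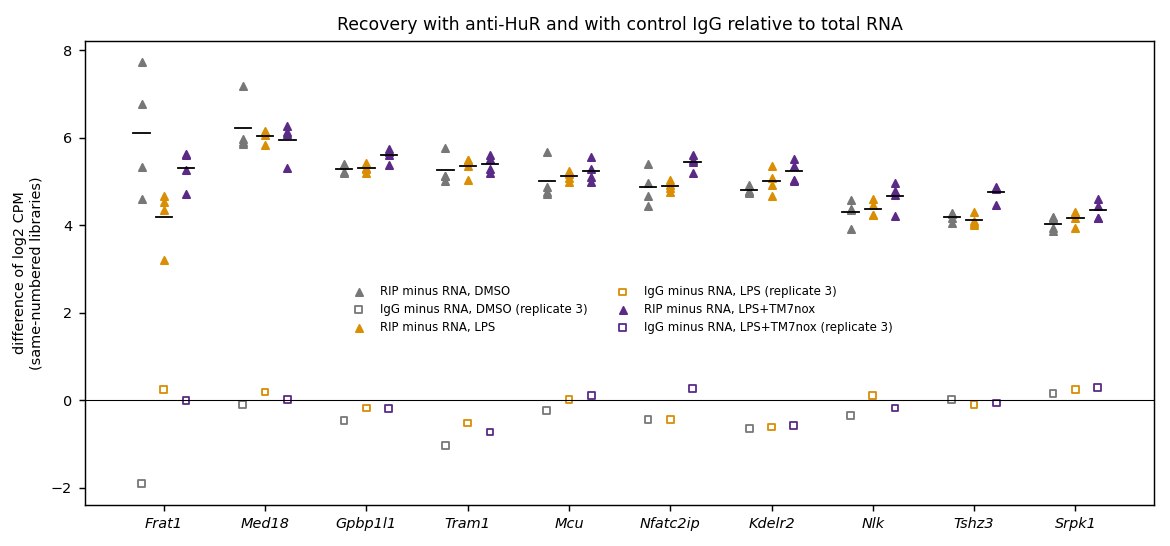
Difference of log2 CPM between same-numbered libraries for each mRNA: triangles are RIP minus RNA (4 per treatment, black bars are means) and open squares IgG minus RNA (replicate 3). Triangles lie between 3.20 and 7.74, both of Frat1, whose RNA libraries held few or 0 counts so that the value depends on the prior count; without Frat1 they lie between 3.87 (Srpk1) and 7.18 (Med18). The squares lie between -1.91 (Frat1) and 0.28.

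The change of RIP over RNA from DMSO to LPS lay between -0.20 (Tshz3) and 0.09 (Kdelr2) on the log2 scale, with a median of -0.05 against 0.02 for all genes. For Frat1 the change of -0.13 had an SE of 1.28 and was 2.47 in replicates 1 and 2, while its replicate-wise mean was 6.12 in DMSO and 4.19 in LPS, so these counts do not fix its direction. From LPS to LPS+TM7nox the median was 0.23, against 0.00 for all genes, and 9 of 10 values were above 0. Apart from Frat1, at 2.00 (SE 1.45) with 1 RNA count in LPS+TM7nox, the largest was that of Tshz3 at 0.62 (SE 0.189), followed by Nfatc2ip at 0.52 (SE 0.228). In the replicate-wise differences, Tshz3 spanned 4.00 to 4.31 with LPS alone and 4.47 to 4.89 with TM7nox added. Nfatc2ip spanned 4.76 to 5.03 and 5.20 to 5.62. Among 14311 genes, the change of Tshz3 ranked 1483rd from the highest and that of Nfatc2ip 1944th. Within RNA, the change from LPS to LPS+TM7nox was -0.50 for Tshz3 (FDR 0.0161, edgeR) and -0.39 for Nfatc2ip (FDR 0.23). These changes are built from the values that chose the mRNAs as constant, and have no test here.

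Treatment effects within one kind of library are not the ratio named in the choice, but RIP and RNA levels are its parts and the mRNAs were chosen with earlier results known. They were tested with edgeR's quasi-likelihood test, adjusted over all genes (FDR under 0.05 is a call). With TMM scaling, each comparison called 1 to 4 of the 10 mRNAs, a share no higher than that of all genes. In total RNA, LPS against DMSO called 42% of 12369 genes (20.2% higher, 21.7% lower) and 1 of the 9 mRNAs tested, Tshz3, which was lower. Adding TM7nox to LPS called 13.8% of all genes (7.37% higher, 6.4% lower) and again 1 of the 9, Tshz3, lower. Between LPS+TM7nox and DMSO, 47.3% of all genes were called (23.7% higher, 23.6% lower) and 4 of the 9, with Gpbp1l1 higher and Tshz3, Srpk1 and Nfatc2ip lower. These comparisons share their libraries. Frat1 had too few counts in RNA to be tested.

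In RIP, LPS against DMSO called 44.7% of 13614 genes (23.5% higher, 21.2% lower) and 3 of the 10 mRNAs, all lower: Frat1, Tshz3 and Med18. Adding TM7nox to LPS called 16.2% of all genes (8.64% higher, 7.61% lower) and 1 of the 10, Nlk, higher. Between LPS+TM7nox and DMSO, 48.1% of all genes were called (25.1% higher, 23.1% lower) and 4 of the 10, with Gpbp1l1 and Nlk higher and Frat1 and Tshz3 lower. With the replicate number as a block, LPS+TM7nox against LPS called 3 of the 10 in RIP, namely Nlk, Gpbp1l1 and Frat1, all higher, and 33.6% of all genes. With total counts alone, which moved the median of all genes by -0.63 in RIP for LPS against DMSO, all 10 mRNAs were called there, as were 56.8% of all genes, and 16.8% of all called genes were higher, against 52.6% with TMM scaling. In RNA the same setting moved the median by -0.28 and called 6 of the 9 and 47.6% of all genes in LPS against DMSO, with 27.7% of all called genes higher against 48.2%.

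Of the 14 calls over the 6 comparisons, 3 held in all 19 alternatives: Frat1 in RIP, LPS and LPS+TM7nox each against DMSO, and Tshz3 in RNA, LPS+TM7nox against DMSO. The other 11 were lost without the filter on low counts, with FDRs of 0.0567 to 0.211, and in replicates 1 and 2 alone, with FDRs of 0.0858 to 0.536. In replicates 3 and 4 alone, both other calls of Tshz3 in RNA and the RNA calls of Gpbp1l1 and Srpk1 held. The remaining 7, of which Nfatc2ip was in RNA and the others were in RIP, had FDRs of 0.0542 to 0.229 there. All 11 kept their direction in these subsets.

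**Figure D4:**
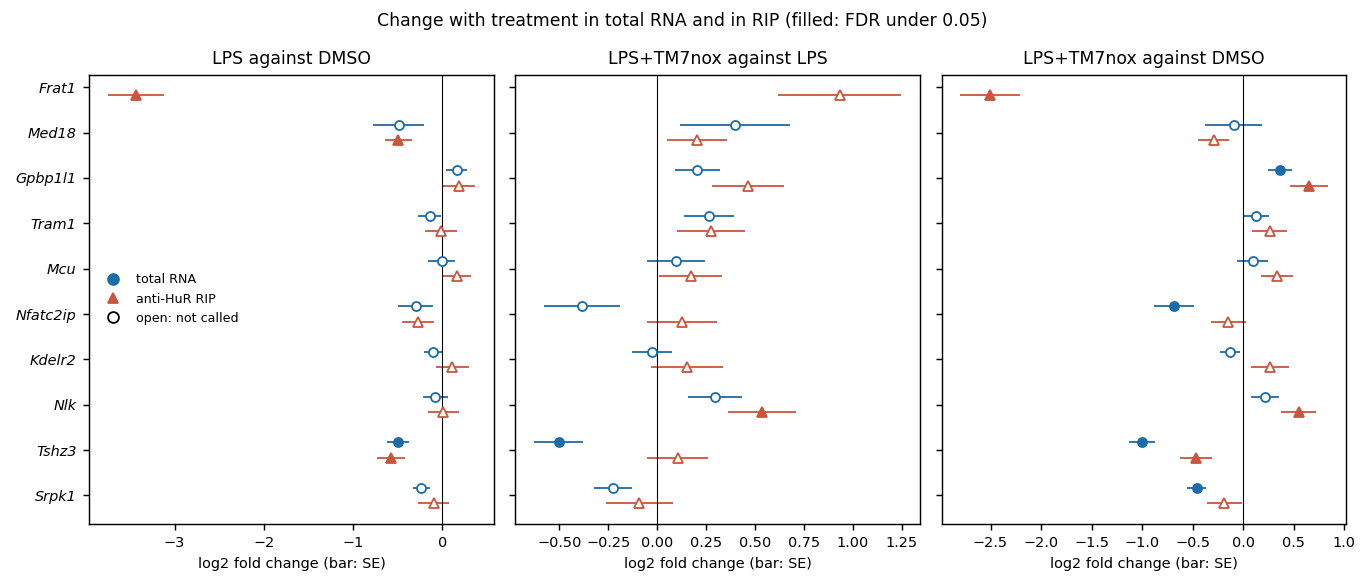
Log2 fold change with its SE for each mRNA in 3 comparisons; circles are total RNA, triangles anti-HuR RIP, and filled symbols have an FDR under 0.05. Tshz3 is lower in all comparisons with DMSO, and Frat1 falls furthest in RIP; with total counts alone Gpbp1l1 and Nlk in RIP, LPS+TM7nox against DMSO, stand at -0.014 and -0.11. Horizontal axes differ between panels.

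Tshz3, a teashirt-family zinc finger transcription factor, fell stepwise in total RNA. Its RNA libraries held 21.6, 19.4, 20.4 and 19.7 CPM in DMSO, 14.2, 12.6, 15.5 and 16.2 in LPS and 8.99, 10.3, 11.04 and 10.8 in LPS+TM7nox. No library of one treatment overlapped those of another, in the order DMSO, LPS, LPS+TM7nox. The log2 fold change was -0.50 for LPS against DMSO (SE 0.126, FDR 0.00555, edgeR), -0.50 for LPS+TM7nox against LPS (SE 0.126, FDR 0.0161) and -1.002 for LPS+TM7nox against DMSO (SE 0.128, FDR 1.9e-05). The last passed the threshold in 19 of 19 alternatives. The second did not without RNA LPS replicate 4 (FDR 0.0575).

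In RIP, Tshz3 held 389.9, 323, 394 and 385 CPM in DMSO, 245, 252, 259 and 260.3 in LPS and 260.4, 307, 247 and 312 in LPS+TM7nox. The DMSO libraries lay above both others, which overlapped each other. LPS against DMSO gave -0.57 (SE 0.155, FDR 0.00679) and LPS+TM7nox against DMSO -0.47 (SE 0.154, FDR 0.0199). Against LPS alone, LPS+TM7nox gave 0.10 (SE 0.154, FDR 0.693). The second step in RNA therefore had no counterpart past the threshold in RIP, and the difference between the assays is the 0.62 given above, without a test. Without RIP LPS+TM7nox replicate 3 the FDR of LPS+TM7nox against DMSO was 0.0768. Tshz3 (chr7:36397428-36472978) is overlapped by 5 annotated genes, 4 on its own strand, whose reads could be counted with it or left out.

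Frat1, which binds the kinase GSK3 and favours β-catenin signalling, was near the limit of detection in total RNA and had the largest fall with LPS of the 10. Its RNA libraries held 0, 12, 16 and 6 counts in DMSO, 0, 0, 2 and 1 in LPS and 0, 0, 0 and 1 in LPS+TM7nox. Its RIP libraries held 507, 473, 473 and 609 counts in DMSO, 43, 34, 25 and 38 in LPS and 93, 57, 51 and 52 in LPS+TM7nox. In CPM the RIP libraries had 17.2, 15.7, 14.4 and 30.6 in DMSO, 1.99, 1.79, 1.29 and 2.20 in LPS and 3.95, 3.86, 2.04 and 4.68 in LPS+TM7nox. Every DMSO library was far above the others, and LPS and LPS+TM7nox touched, since LPS+TM7nox replicate 3 fell within the LPS range.

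The log2 fold change of Frat1 in RIP was -3.44 for LPS against DMSO (SE 0.314, FDR 3.17e-07, edgeR) and -2.50 for LPS+TM7nox against DMSO (SE 0.298, FDR 5.42e-06). Both passed the threshold in 19 of 19 alternatives. Relative to LPS alone, LPS+TM7nox gave 0.93 (SE 0.316, FDR 0.0544), higher in 4 of 4 same-numbered pairs, and the FDR was 0.00153 with the replicate block. It was 0.018 without RIP LPS+TM7nox replicate 3 and 0.0291 without RIP DMSO replicate 4, in a range of 0.00153 to 0.331 over 19 alternatives. In RNA the summed counts of 34 in DMSO and 3 in LPS gave a ratio of 12.5 after division by the TMM-scaled library sizes (exact 95% interval 3.92 to 63.4, counting error only). Both groups had libraries at 0 counts, but in DMSO only replicate 1, the shallowest, in which 10 counts of Med18 are 2.12 CPM. The other DMSO libraries had 0.309, 0.515 and 0.197 CPM, above the highest LPS library at 0.0687 CPM.

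The recovery of Frat1 is best read from summed counts, divided by TMM-scaled library sizes, with intervals that cover counting error only. Such ratios are of the kind that chose Frat1, so their intervals are a description and no test. The intervals leave out the choice and the spread between replicates. RIP over RNA was 56.6 in DMSO (2062 against 34 counts, exact 95% interval 40.4 to 81.9). It was 69.8 in LPS (140 against 3 counts, 23.4 to 343) and 350 in LPS+TM7nox (253 against 1 count, 62.2 to 13900). RIP over IgG was 235 in DMSO (80.3 to 1140) and 18.9 in LPS (6.34 to 92.8), each against 3 IgG counts. In LPS+TM7nox the IgG library had 0 counts, and RIP was at least 13.2-fold higher against a floor of 3 counts in that library. Frat1 (chr19:41818409-41821022) overlaps no other annotated gene.

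Med18 fell in RIP with LPS, by the values given above. The 4 LPS libraries, from 230 to 266 CPM, all lay below the 4 DMSO libraries, from 310 to 389 CPM. The log2 fold change was -0.49 (SE 0.153, FDR 0.0157, edgeR). In RNA the change was also -0.49 but with a larger error (SE 0.283, FDR 0.188). Among 19 alternatives it passed the threshold in 3, with a lowest FDR of 0.0144. These include the fit without RNA DMSO replicate 1, the shallowest library, which holds 10 counts of Med18 (log2 -0.66, FDR 0.0328). They also include total counts alone (-0.77, FDR 0.0418). That setting also called Med18 lower in RIP for LPS+TM7nox against DMSO (-0.94, FDR 5.05e-05), as 2 of 19 alternatives did.

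Gpbp1l1, named for its likeness to the GC-rich promoter-binding protein Gpbp1, was highest in LPS+TM7nox in both kinds of library. In RNA it had 36.7, 42.2, 37.5 and 38.3 CPM in DMSO, 39.7, 51.4, 42.9 and 42.6 in LPS and 44.3, 57.7, 49.0 and 52.4 in LPS+TM7nox. In RIP it had 1364, 1556, 1557 and 1617 CPM, 1565, 2060.0, 1842 and 1564 and 2254, 3115, 2040.0 and 2573 in the same order. LPS overlapped both neighbours in each assay, while LPS+TM7nox and DMSO did not overlap. Against DMSO, LPS+TM7nox gave 0.36 in RNA (SE 0.115, FDR 0.0182) and 0.65 in RIP (SE 0.185, FDR 0.00913). With total counts alone, where all genes shift downward, the values were 0.04 and -0.014 and not called. The RNA call was also lost without RNA LPS+TM7nox replicate 2 (FDR 0.061). Against LPS alone, LPS+TM7nox in RIP gave 0.46 (SE 0.185, FDR 0.0986), and 0.0271 with the replicate block. The gene lies at chr4:116414776-116451096, where 2 genes overlap it on the other strand.

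Nlk, Nemo-like kinase, which phosphorylates TCF/LEF factors of the Wnt pathway, changed in RIP and not past the threshold in RNA. Its RIP libraries held 307, 342, 366 and 351 CPM in DMSO, 278, 403, 379 and 340.1 in LPS and 436, 625, 466 and 561 in LPS+TM7nox. DMSO and LPS overlapped, and all 4 LPS+TM7nox libraries lay above both. LPS+TM7nox gave 0.54 against LPS (SE 0.174, FDR 0.0462) and 0.55 against DMSO (SE 0.174, FDR 0.0164). The first was called in 6 of 19 alternatives and the second in 11 of 19, the FDRs reaching 0.273 and 0.512. With total counts alone the second was -0.11. With 1 of the 12 RIP libraries left out, the first call held only without LPS+TM7nox replicate 1 (FDR 0.0311), LPS replicate 2 (0.0374) or LPS+TM7nox replicate 3 (0.0443). The other 9 omissions ended it, and the FDR reached 0.14 without LPS replicate 1. The second call ended without RIP DMSO replicate 1 (0.0689), RIP DMSO replicate 2 (0.0516), RIP LPS+TM7nox replicate 2 (0.0632) or RIP LPS+TM7nox replicate 4 (0.0513). In RNA, where Nlk had 14.8, 16.4, 17.1 and 18.0 CPM in LPS and 23.3, 20.0, 17.9 and 20.1 in LPS+TM7nox, the change was 0.30 (SE 0.138, FDR 0.188). The change of RIP over RNA from LPS to LPS+TM7nox was 0.27 (SE 0.202). Nlk is overlapped by 3 annotated genes, 2 on its own strand. In all, 7 of the 10 genes overlap others, and how the counting treated strand is not given in the sources used here.

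Srpk1 and Nfatc2ip were lower in RNA under LPS+TM7nox, and in RIP they were not called with TMM scaling but were called lower with total counts alone. Srpk1 is a kinase of SR splicing factors. Its RNA libraries held 97.1, 92.2, 91.3 and 96.7 CPM in DMSO, 87.9, 74.3, 83.3 and 81.9 in LPS and 69.9, 66.8, 70.0 and 73.1 in LPS+TM7nox, with no overlap between any 2 treatments. Compared with DMSO, LPS+TM7nox gave -0.46 (SE 0.0959, FDR 0.0012). LPS against DMSO gave -0.24 (SE 0.0957, FDR 0.0617, and 0.0154 with the replicate block), and LPS+TM7nox against LPS -0.23 (SE 0.0955, FDR 0.147, and 0.0423 with the block). In RIP, Srpk1 libraries of all treatments overlapped, from 1248 to 1744 CPM, and LPS+TM7nox against DMSO gave -0.19 (SE 0.172, FDR 0.379), against -0.85 (FDR 9.04e-05) with total counts alone.

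Nfatc2ip encodes a protein with SUMO-like domains that binds the transcription factor NFATC2. Its RNA libraries held 10.8, 8.29, 7.40 and 6.77 CPM in DMSO, 7.19, 6.77, 7.08 and 6.15 in LPS and 4.76, 4.48, 4.97 and 6.59 in LPS+TM7nox. The DMSO and LPS+TM7nox libraries did not overlap, the nearest being 6.77 and 6.59 CPM. Relative to DMSO, LPS+TM7nox gave -0.68 (SE 0.197, FDR 0.0108), with -1.03 (FDR 0.0858) in replicates 1 and 2 and -0.28 (FDR 0.195) in replicates 3 and 4. In RIP its libraries ranged from 185 to 290 CPM, overlapping between treatments, and the same comparison gave -0.15 (SE 0.177, FDR 0.516), against -0.80 (FDR 0.000942) with total counts alone. The difference between RNA and RIP was not tested for Srpk1 and Nfatc2ip, whose change of RIP over RNA between the same treatments was 0.16 (SE 0.19) and 0.42 (SE 0.229).

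Kdelr2, Tram1 and Mcu were not called in any of the 6 comparisons with TMM scaling. Their log2 changes lay between -0.14 (Tram1, RNA, LPS against DMSO) and 0.33 (Mcu, RIP, LPS+TM7nox against DMSO). All 3 were called lower in RIP for LPS against DMSO with total counts alone, as given above for the 10. In the same setting Kdelr2 was called lower in RNA for LPS (-0.40, FDR 0.00723) and LPS+TM7nox (-0.46, FDR 0.00249) against DMSO, and Tram1 in RNA for LPS (-0.43, FDR 0.00973). For LPS+TM7nox against DMSO in RIP, Kdelr2 (-0.38, FDR 0.0493) and Tram1 (-0.38, FDR 0.0358) were called lower too. With the replicate block the Mcu value had an FDR of 0.0385. Without RNA DMSO replicate 1, in which Tram1 had its lowest RNA value of 92.2 CPM, Tram1 was called lower in RNA in LPS against DMSO (log2 -0.26, FDR 0.0311) and higher in LPS+TM7nox against LPS (0.26, FDR 0.0457).

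Partners and paralogs of the 10 mRNAs, 87 genes listed by complex or pathway, were called both higher and lower in RIP over RNA. Of 84 tested, 35 were higher and 39 lower in DMSO (41.7% and 46.4%), against 37% and 33.4% of all genes. In LPS 29 were higher and 39 lower (34.5% and 46.4%, against 32.9% and 30.8%), and in LPS+TM7nox 30 and 37 (35.7% and 44%, against 35.2% and 34.8%). The median was -0.31 in DMSO, against 0.04 for all genes. With total counts alone, 22, 19 and 22 of the 84 were called higher, and 26.4%, 19.8% and 23.2% of all genes. In RNA, LPS against DMSO called 24 of 82 higher and 9 lower (29.3% and 11%), against 20.2% and 21.7% of all genes. In RIP it called 32 and 9 of 83 (38.6% and 10.8%), against 23.5% and 21.2%. For LPS+TM7nox against LPS the counts were 5 higher and 3 lower in RNA (6.1% and 3.66%, against 7.37% and 6.4% of all genes) and 9 and 5 in RIP (10.8% and 6.02%, against 8.64% and 7.61%).

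Closest paralogs were mostly recovered less than the chosen member. Kdelr1, another KDEL receptor, had a mean log2 RIP over RNA of 1.29, against 5.05 for Kdelr2, and Kdelr3 had 1.56. Tram2 had 1.35 against 5.36 for Tram1, and Srpk2 1.49 against 4.22 for Srpk1. Gpbp1 had 2.00 against 5.44 for Gpbp1l1, and Tshz1 2.61 against 4.39 for Tshz3. Mcub, a uniporter subunit that lowers channel activity, was below 0 at -1.38, against 5.14 for Mcu. Kdelr1, Tram2, Srpk2, Gpbp1 and Tshz1 were each called higher in RIP in all 3 treatments, and Mcub lower (FDR at most 7.86e-05, edgeR). With total counts alone Kdelr1 in DMSO and LPS, and Tram2 in LPS and LPS+TM7nox, kept their sign but were not called. Kdelr3 had 1.79 in DMSO, 2.51 in LPS and 0.39 in LPS+TM7nox, the last called in 0 of 30 alternatives. Frat2 rested on 7 RNA counts in DMSO and had 2.92 in DMSO, -1.14 in LPS and 0.0022 in LPS+TM7nox, and its LPS value was 1.82 without RNA LPS replicate 1. Srpk3 and Tshz2 had too few counts to be tested. The gaps to the chosen members partly follow from the choice, and have no test.

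Within complexes the spread was wide, and in DMSO 37% of all genes were called higher and 33.4% lower. Of 29 Mediator subunits other than Med18, 11 were called higher in RIP and 13 lower in DMSO, 7 and 14 in LPS, and 8 and 13 in LPS+TM7nox, from cyclin C (Ccnc, mean 3.85) down to Med10 (-1.54). Around the uniporter, 3 of 8 genes were called higher and 5 lower in each treatment: the regulator Micu3 had a mean of 4.85, beside 5.14 for Mcu, while the essential small subunit Smdt1 had -1.41. Among 12 translocon genes, in each treatment, 4 were called higher, led by the translocon-associated Ssr3 at 2.16, and 7 lower, the lowest being Ssr4 at -1.91. In ER retrieval, 3 of 10 were called higher in DMSO and LPS and 2 in LPS+TM7nox, with 6 lower in each, down to the coatomer subunit Cope at -1.82.

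Among splicing kinases Clk1 had 2.40 and Clk3 -1.06, with 3 of 5 called higher and 2 lower in each treatment. Of 14 Wnt regulators tested, 6 were called higher and 6 lower in DMSO, 4 and 5 in LPS, and 5 and 4 in LPS+TM7nox, from the transcription factor Tcf7l2 at 3.89 to the kinase Gsk3a at -1.05. Over all genes, 37% were called higher and 33.4% lower in DMSO, 32.9% and 30.8% in LPS, and 35.2% and 34.8% in LPS+TM7nox. Nfatc2, the partner of Nfatc2ip, had 3.44.

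**Figure D5:**
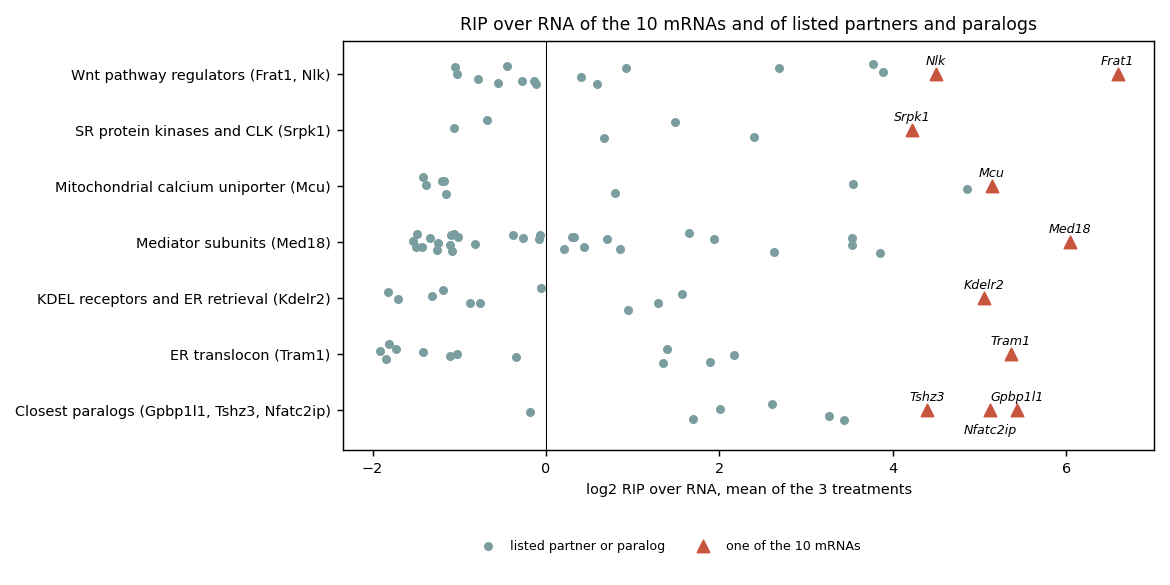
Log2 RIP over RNA (mean of the 3 treatments, TMM scaling) of the 10 mRNAs (triangles) and of 84 listed partners and paralogs (circles), by complex or pathway; vertical position within a row only separates the circles. Each triangle lies to the right of every circle in its row, and with total counts alone the whole axis moves left by about the -0.76 to -0.998 given in the text.

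By likeness of profile, measured as Pearson's r of log2 CPM over all 27 libraries with the mean standardised profile of the 10, the closest other named genes were Pan3 (r = 0.998), Entpd7 (0.997), Upf1 (0.996), Foxn2 (0.996) and Rbm15 (0.996). The members themselves had r from 0.932 (Frat1) to 0.996 (Srpk1). Libraries of 1 assay share their preparation, so the points are not independent and r is a description. Pan3, a subunit of a poly(A) deadenylase, had 46.8 ± 3.59 CPM in DMSO RNA and 1703 ± 158 CPM in DMSO RIP (SD, n = 4 each).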

How the data were processed

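Total RNA, anti-HuR RIP and control IgG from RAW264.7 cells were sequenced in 27 libraries. The authors deposited raw counts per gene, whole numbers without normalization; per the submitters' processing notes FastQC 0.11.9, STAR, HTSeq and DESeq2 were used with GRCm39. The annotation release is not given in the sources used here, nor is the strand setting. Without molecular identifiers, intervals cover counting error only.

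The test was edgeR 4.0.16 under R 4.3.3 (quasi-likelihood, two-sided, TMM, filterByExpr minimum count 10, Benjamini-Hochberg over all genes, FDR 0.05). The 12 RNA and the 12 RIP libraries were fitted separately, both together (24) for RIP over RNA, and RIP with IgG (15) with treatment as covariate. Log2 CPM used a prior count of 2. On simulated RIP counts for LPS against DMSO (13614 genes, 200 changed 2-fold), 35% of the changed genes were called and 5.41% of calls were false. In the data this comparison called 44.7% of genes, a share the simulation did not match, so the 35% need not hold there. Replicate pairs within groups all differed beyond sampling noise.

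The members and lists were chosen with earlier results of these data known. Named genes are the members, in each family the highest and lowest by RIP over RNA and the paralogs, and the 5 most alike profiles; 1 gene that this rule names is not reported here. Same-numbered libraries deviated together (r 0.143 to 0.367 in RNA, 0.222 to 0.507 in RIP, 0.209 to 0.405 between RIP and RNA, each pair over 0.1). Libraries of different numbers had r of -0.317 to 0.283, -0.376 to 0.213 and -0.331 to 0.242 in the same order. These overlap the same-numbered range in RNA and between RIP and RNA. The numbers were taken to pair the samples, which the labels do not say. The main fits hold no replicate term, and the replicate block is an alternative. Alternatives covered scaling, filter, replicate block, replicates 1 and 2 or 3 and 4 alone, each library left out, and DESeq2 1.42.0. Of 14311 tested genes, 98.9% matched GENCODE M39, and 98.5% of the coding ones had a 3′ UTR; printed 3′ UTR values use the canonical transcript.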

Additional observations from a re-analysis of the deposited data

Results flagged for a closer look

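For each of the 10 mRNAs, the 6 groups of 4 RNA or RIP libraries were searched for a library far from the other 3, and 2 of 60 groups held one; chance gives about 1 in 20. Tshz3 in RIP DMSO replicate 2 stood at 323 CPM, while the other 3 libraries lay between 385 and 394 CPM. Frat1 in RNA LPS+TM7nox replicate 4 stood at 0.0425 CPM, which is 1 count, while the other 3 were at 0. That flag follows from the libraries at 0, so the rate of chance does not apply to it.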

How the results depend on the processing

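The calls of Frat1 in RIP against DMSO and of Tshz3 in RNA for LPS+TM7nox against DMSO held in all 19 alternatives. The numbers of mRNAs called depended on the processing. In RNA, LPS against DMSO called 1; it called 6 with total counts alone, 0 without the filter on low counts, 2 with the replicate block, 0 in replicates 1 and 2, 2 in replicates 3 and 4, and 1 to 3 with 1 library left out. Adding TM7nox to LPS called 1 in RNA; it called 0 without the filter, 2 with the replicate block, 0 in replicates 1 and 2, 3 in replicates 3 and 4, 2 with DESeq2, and 0 to 2 with 1 library left out. In RNA, LPS+TM7nox against DMSO called 4, against 2 without the filter and 1 in replicates 1 and 2. In RIP, LPS against DMSO called 3, against 10 with total counts, 1 without the filter, 1 in replicates 1 and 2 and 1 in replicates 3 and 4. Adding TM7nox to LPS called 1 in RIP, against 0 with DESeq2's size factors, 3 with the replicate block, 0 in replicates 3 and 4, 3 with DESeq2, and 0 to 2 with 1 library left out. In RIP, LPS+TM7nox against DMSO called 4, against 7 with total counts, 1 without the filter and 1 in each of these subsets. With total counts, 1463 genes were called higher and 6578 lower of 13614 in that comparison. Over all genes, the 19 alternatives called 1668 to 7349, 168 to 3489 and 2246 to 7925 in RNA. In RIP they called 3392 to 8073, 789 to 4577 and 4505 to 8409. Both lists run LPS against DMSO, LPS+TM7nox against LPS, LPS+TM7nox against DMSO. The cause was not tested, except that the subsets hold fewer samples. Beyond the calls named in the report, the replicate block changed no call of the 10 mRNAs or of the named partners. Over all genes it called 3091 in RNA and 4577 in RIP for LPS+TM7nox against LPS, against 1704 and 2212.

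The median RIP over RNA of the 10 in DMSO was 5.04, against 5.20 with DESeq2's size factors, 4.27 with total counts and 4.82 without the filter. In LPS it was 5.08, against 5.26, 4.07, 5.00, 4.93 in replicates 3 and 4, and 5.03 to 5.16 with 1 library left out. In LPS+TM7nox it was 5.31, against 4.31 with total counts. The median change from DMSO to LPS moved from -0.05 to -0.28 with total counts, and RIP over IgG from 5.49 to 4.45 and to 5.16 to 5.56 with 1 library left out. Partners called higher in RIP went from 35 to 22 in DMSO and from 29 to 19 in LPS with total counts. Over all genes, replicates 1 and 2 called 1668, 168 and 2246 in RNA (LPS against DMSO, LPS+TM7nox against LPS, LPS+TM7nox against DMSO; 5190, 1704 and 5850 with all replicates), and 3392 and 789 in RIP for the first pair of comparisons (6090 and 2212). Replicates 3 and 4 called 3489 in RNA and 1070 in RIP for LPS+TM7nox against LPS. Total counts also moved the share of higher genes among those called, for LPS+TM7nox against DMSO from 50% to 29% in RNA and from 52.1% to 18.2% in RIP, and for RIP over RNA from 52.6% to 34.7% (DMSO), 51.7% to 25.8% (LPS) and 50.3% to 29.6% (LPS+TM7nox).

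Some log2 values changed sign, including the called ones of Gpbp1l1 and Nlk in RIP for LPS+TM7nox against DMSO. With total counts, LPS against DMSO in RIP was -0.45 for Gpbp1l1, -0.52 for Kdelr2, -0.47 for Mcu and -0.62 for Nlk, and in RNA -0.13 for Gpbp1l1. Under the same setting LPS+TM7nox against DMSO was -0.014 for Gpbp1l1, -0.38 for Kdelr2, -0.32 for Mcu, -0.11 for Nlk and -0.38 for Tram1 in RIP, and -0.22 for Mcu, -0.11 for Nlk and -0.20 for Tram1 in RNA. RIP over RNA in LPS+TM7nox was -1.05 for Frat2 and -0.59 for Kdelr3. In replicates 3 and 4, Kdelr2 was -0.031 in RIP (LPS against DMSO) and 0.026, 0.060 and 0.034 in RNA (LPS against DMSO, LPS+TM7nox against DMSO, LPS+TM7nox against LPS). Nlk was -0.076 in RIP and 0.13 in RNA for LPS against DMSO, and Med18 -0.0099 in RNA for LPS+TM7nox against LPS. In replicates 1 and 2, Mcu in RNA was 0.15 (LPS against DMSO) and -0.047 (LPS+TM7nox against LPS), Med18 0.58 in RNA (LPS+TM7nox against DMSO) and Tram1 0.012 in RIP (LPS against DMSO). Frat2 was -0.43 and Kdelr3 -0.54 for RIP over RNA in LPS+TM7nox. Over the 19 alternatives, Med18 in RNA for LPS+TM7nox against DMSO spanned -0.62 to 0.58, and 1 alternative called it (FDR 0.013). With DESeq2's size factors, and the same with DESeq2 itself except where 2 values are given, Mcu was 0.047 and 0.028 in RNA and Nlk -0.011 in RIP (LPS against DMSO). Without the filter, Mcu was 0.048 (RNA, LPS against DMSO) and Frat2 -0.23 (RIP over RNA, LPS+TM7nox).

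With 1 library left out, some values spanned 0. In RNA these were Kdelr2 (-0.078 to 0.011, LPS+TM7nox against LPS), Mcu (-0.10 to 0.095, LPS against DMSO, and -0.0089 to 0.19, LPS+TM7nox against DMSO), Med18 (-0.30 to 0.067, LPS+TM7nox against DMSO) and Nlk (-0.16 to 0.020, LPS against DMSO). In RIP they were Nfatc2ip (-0.011 to 0.23, LPS+TM7nox against LPS), Nlk (-0.10 to 0.065) and Tram1 (-0.11 to 0.027), the latter both for LPS against DMSO. For RIP over RNA it was Frat2 (-1.76 to 1.82 in LPS, -0.42 to 1.78 in LPS+TM7nox). The U share of the 3′ UTRs was 31.9% with the longest, 33.6% with the canonical, and 31.9% for 3′ UTRs of at least 200 bases. Depth limited Frat1 and Frat2 in RNA, and Med18 in RNA DMSO replicate 1.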
